A study of Arabidopsis thaliana with 12 samples.

Results

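Ribosomal protein genes are described here in leaves of Arabidopsis thaliana plants of 4 genotypes. The members are the nuclear genes of the deposited table, with a locus code from AT1G to AT5G, whose description holds the words ribosomal protein. This rule, which uses no measured value, gave 309 of 18884 genes, and all 309 passed the filter on low counts. By their deposited descriptions, RefSeq names and textbook knowledge, 100 encode proteins of the large and 71 of the small subunit of the cytosolic ribosome, 35 belong to the plastid ribosome, and 56 are of the mitochondrial type. The rule also took in 27 genes whose class was not clear and 20 that share a domain name but are no ribosome subunits, such as elongation factors. The words are not in every annotation of such a gene, so some known ribosomal protein genes, among them RPL3B and SAG24, are not members.

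Polyadenylated RNA of untreated leaves was sequenced in 12 libraries, 3 per genotype, from plants 5 weeks old that grew on soil with 10 h of light a day at 22 °C and 60% humidity. The TPR1-GFP sid2-1 and TPR1-GFP eds1-2 lines carry the transgene of the TPR1-GFP line (pTPR1:TPR1-GFP, a GFP fusion of the TOPLESS-related corepressor TPR1 under TPR1's own promoter) together with a mutant allele. The sid2-1 allele affects ICS1, which makes the precursor of most pathogen-induced salicylic acid, and eds1-2 affects EDS1, through which TIR-type immune receptors signal. Col-0 is the wild type without the transgene. Each transgenic genotype was sampled from the line named, so effects of the transgene and of its insertion site cannot be told apart. The labels tie no replicate number to one of the experiments, so p-values measure the spread between these libraries only.

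Ribosomes join amino acids into proteins in 3 compartments of a plant cell. The cytosolic ribosome translates nuclear messages, and each of its proteins is usually encoded by a small family of near-identical paralogs. The plastid ribosome is of bacterial type and translates the genes of the chloroplast, among them core proteins of photosynthesis. Most of its proteins, like those of the mitochondrial ribosome, are encoded in the nucleus and imported.

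Library totals ran from 19628974 to 32018583 counts. Levels are edgeR's CPM, the counts divided by the TMM-scaled library size, and log2 differences, their derived standard errors (SE) and adjusted p come from edgeR's quasi-likelihood test over all 12 libraries, with Benjamini-Hochberg adjustment over all 18877 genes tested and calls under 0.05. The count of TPR1, which pools the native gene and the transgene, was 775.8, 1305 and 1222 CPM in TPR1-GFP sid2-1, 1048, 1327 and 990.2 CPM in TPR1-GFP eds1-2 and 1539, 1748 and 1617 CPM in the TPR1-GFP libraries, against 74.11, 73.5 and 68.29 CPM in Col-0. EDS1 ranged from 13.48 to 15.99 CPM in TPR1-GFP eds1-2, against 129.8 to 173.1 CPM in TPR1-GFP. ICS1 ranged from 132.3 to 157.2 CPM in TPR1-GFP sid2-1, against 207.9 to 368.1 CPM in TPR1-GFP, a level that does not check an allele whose RNA is still made. Col-0 replicate 3 stood apart for cytosolic ribosomal protein genes. Its median deviation from the members' own means over the 12 libraries was 0.67 (log2 scale) for the large subunit, against 0.06 and 0.08 in the other Col-0 libraries. The counts over all members lower in TPR1-GFP and in TPR1-GFP sid2-1 than in Col-0 are therefore given without it too. Counts from the lists of marker, biogenesis, elongation factor and TOR genes include it.

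The sequences before the genes differ between these classes in motifs known from plant ribosomal protein promoters, and 6 of them are shown: 1 abundant member of each class, and the pair of S9-type paralogs that moved in opposite directions. Each is the 250 bases before the annotated gene start, 5′ to 3′ on the gene's strand, from the RefSeq genome. Capitals mark site II elements (TGGGCC or TGGGCT, which TCP factors are known to bind) and the telo box (AAACCCTA), searched on both strands with overlaps allowed.
ARP1 AT1G43170, chr1:16266303-16266552 of TAIR10.1, plus strand: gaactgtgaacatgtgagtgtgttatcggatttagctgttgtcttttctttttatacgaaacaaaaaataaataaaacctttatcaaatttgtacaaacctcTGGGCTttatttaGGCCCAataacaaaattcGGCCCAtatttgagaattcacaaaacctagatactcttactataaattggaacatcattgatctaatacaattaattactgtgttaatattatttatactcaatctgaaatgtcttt
AT5G20290, chr5:6853107-6853356 of TAIR10.1, minus strand: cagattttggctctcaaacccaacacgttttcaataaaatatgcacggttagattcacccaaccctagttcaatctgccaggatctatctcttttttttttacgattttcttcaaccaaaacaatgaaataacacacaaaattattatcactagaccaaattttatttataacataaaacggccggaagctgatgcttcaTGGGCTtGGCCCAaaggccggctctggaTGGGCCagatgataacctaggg
RPS1 AT5G30510, chr5:11621299-11621548 of TAIR10.1, minus strand: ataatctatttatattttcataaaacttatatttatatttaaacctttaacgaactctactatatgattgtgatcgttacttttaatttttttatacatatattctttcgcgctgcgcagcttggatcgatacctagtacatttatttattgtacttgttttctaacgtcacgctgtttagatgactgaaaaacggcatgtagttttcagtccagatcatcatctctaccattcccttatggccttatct
AT1G64880, chr1:24105361-24105610 of TAIR10.1, plus strand: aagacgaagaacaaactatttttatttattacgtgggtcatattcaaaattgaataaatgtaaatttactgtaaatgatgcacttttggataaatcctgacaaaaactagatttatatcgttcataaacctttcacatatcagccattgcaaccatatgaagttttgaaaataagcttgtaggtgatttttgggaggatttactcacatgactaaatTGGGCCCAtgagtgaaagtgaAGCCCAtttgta
AT5G15200, chr5:4936430-4936679 of TAIR10.1, minus strand: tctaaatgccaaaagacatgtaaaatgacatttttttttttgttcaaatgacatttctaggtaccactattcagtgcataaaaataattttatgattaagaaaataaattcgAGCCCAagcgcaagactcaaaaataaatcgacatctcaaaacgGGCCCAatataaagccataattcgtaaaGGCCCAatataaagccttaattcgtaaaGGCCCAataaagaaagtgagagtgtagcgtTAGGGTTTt
AT5G39850, chr5:15949660-15949909 of TAIR10.1, plus strand: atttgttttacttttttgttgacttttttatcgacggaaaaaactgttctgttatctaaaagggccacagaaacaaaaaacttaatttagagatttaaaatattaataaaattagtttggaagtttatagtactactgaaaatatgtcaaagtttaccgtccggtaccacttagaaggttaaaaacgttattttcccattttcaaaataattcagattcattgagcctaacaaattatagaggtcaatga
ARP1, a cytosolic L3, and AT5G20290, a cytosolic S8, each hold 3 site II elements, as does AT1G64880, a mitochondrial-type S5. RPS1, a plastid S1, has neither motif in this window. AT5G15200 has 4 site II elements and 1 telo box, and its paralog AT5G39850 has none.

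Over all members, 56.6% of these windows hold a site II element, against 19.2% of the 27443 promoters of protein-coding genes of the same length. Among the 18341 protein-coding genes tested, as all members were, it was 23.1%. By class the share was 72.0% for the cytosolic large subunit, 66.2% for the small subunit, 41.1% for the mitochondrial type and 37.1% for the plastid class. The telo box was in 13.9% of the members' windows, against 4.49% of all promoters and 3.56% of those of the genes tested. It was in 22.0%, 14.1%, 1.79% and 11.4% of the same 4 classes. A match is a run of letters in the window, not a binding site. Any link between these motifs and the direction of change was not tested.

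The transcripts of all ribosomal protein genes together took a mean of 2.78% of counts in TPR1-GFP sid2-1, 3.06% in TPR1-GFP eds1-2 and 2.64% in TPR1-GFP, against 3.37% in Col-0. Per kilobase of coding sequence, the median plastid gene stood at 348 CPM per kb in TPR1-GFP sid2-1, 448 in TPR1-GFP eds1-2 and 247 in TPR1-GFP, against 576 in Col-0. The median cytosolic large-subunit gene stood at 176, 203 and 175 CPM per kb in these 3 lines in the same order, against 240 in Col-0, and the median mitochondrial-type gene at 20.5, 25.3 and 21.2 CPM per kb, against 28.5 in Col-0. Plastid genes thus had the highest median level of the 4 classes in every genotype, and mitochondrial-type genes the lowest.

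**Figure D1:**
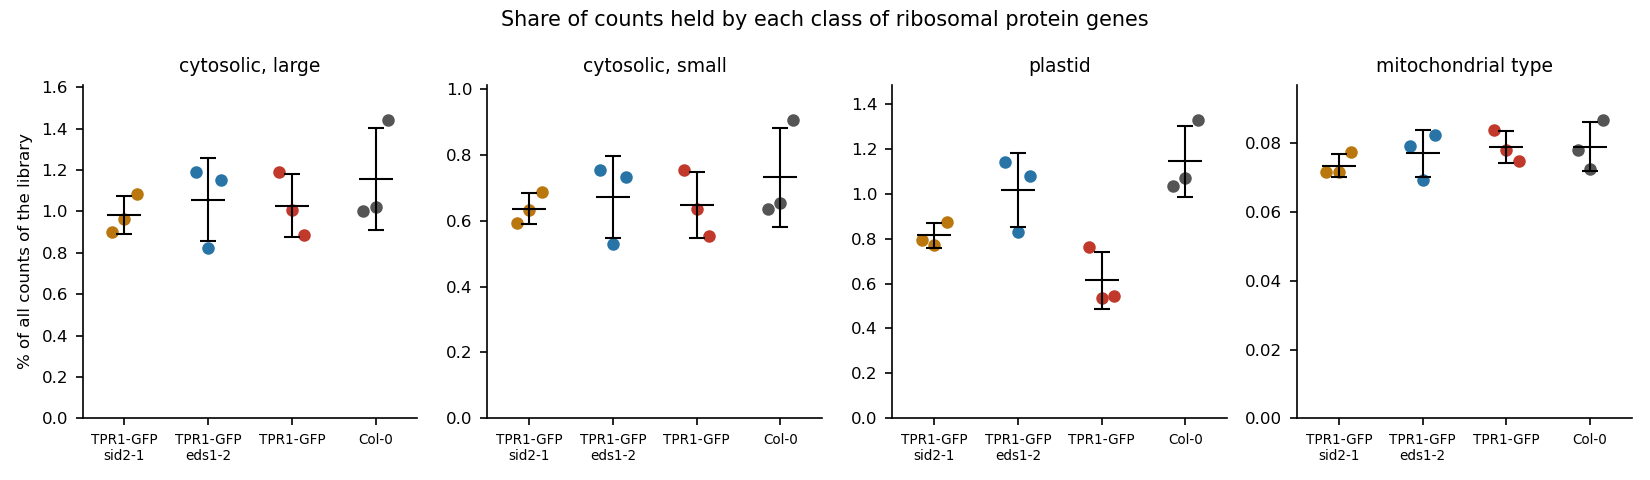
Share of each library's counts (percent, linear axis from 0) held by each class of ribosomal protein genes, with a point per library and the mean ± SD of the 3 libraries per genotype. The plastid class lies at 0.537 to 0.761% in TPR1-GFP, below every Col-0 library (1.04 to 1.33%), while the cytosolic and mitochondrial-type shares overlap between these genotypes.

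In TPR1-GFP against Col-0, 128 of 309 members (41.4%) were called lower and 10 (3.24%) higher, while 26.4% of all genes tested were called lower and 27.5% higher. The median log2 difference of the members was -0.40, against 0.01 over all genes, and -0.21 without Col-0 replicate 3. Without that library 57 of the 309 were called lower and 12 higher, beside 21.7% of all genes lower and 22.9% higher. The classes were unequal. Of 35 plastid genes 34 were called lower, with a median of -1.17, and all 35 had a negative log2 difference. Of 100 cytosolic large-subunit genes 36 were lower and 4 higher (median -0.43), and of 71 small-subunit genes 29 were lower and 1 higher (median -0.41). Without Col-0 replicate 3 these medians were -0.21 and -0.20, and the plastid median was -1.03, with 34 plastid genes called lower. Of 56 mitochondrial-type genes 19 were lower (33.9%, median -0.26, and -0.15 without that library), nearer to the share of all genes, and edgeR called 0 higher, with 0 at an unadjusted p under 0.05 and 0 by DESeq2.

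In TPR1-GFP eds1-2 against TPR1-GFP, 63 members (20.4%) were called higher and 19 lower (6.15%), with 25.2% of all genes called higher and 27.7% lower. The plastid class held 34 of the 63, with a median log2 difference of 0.91, against a median over all genes of -0.03. Of the cytosolic genes 5 large-subunit and 3 small-subunit genes were higher (median 0.20 in both), while 2 and 3 were lower. The higher counts were 1 and 2 without TPR1-GFP replicate 2 and 21 and 17 without TPR1-GFP eds1-2 replicate 2, and with each library left out the medians ran from 0.11 to 0.33 and from 0.10 to 0.32. Mitochondrial-type genes had 14 higher and 3 lower, and 6 and 1 without TPR1-GFP replicate 3. These comparisons share the TPR1-GFP libraries, so the values of one are not independent of the other.

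In TPR1-GFP sid2-1 against TPR1-GFP, 14 members were called higher and 1 lower, with 9.7% of all genes called higher and 7.14% lower. The plastid genes again made up most of them, with 10 of 35 called higher and a class median of 0.48, and all 35 had a positive log2 difference. Of the cytosolic genes edgeR called 0, with 2 large-subunit genes higher, 1 lower and 3 small-subunit genes lower at an unadjusted p under 0.05, while DESeq2 called 1 large-subunit gene higher and 1 gene of each subunit lower. Their medians were 0.01 for the large and 0.00 for the small subunit. The count of plastid calls moved with single libraries, from 0 without TPR1-GFP replicate 2 to 30 without TPR1-GFP replicate 1, while the class median stayed between 0.40 and 0.66.

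**Figure D2:**
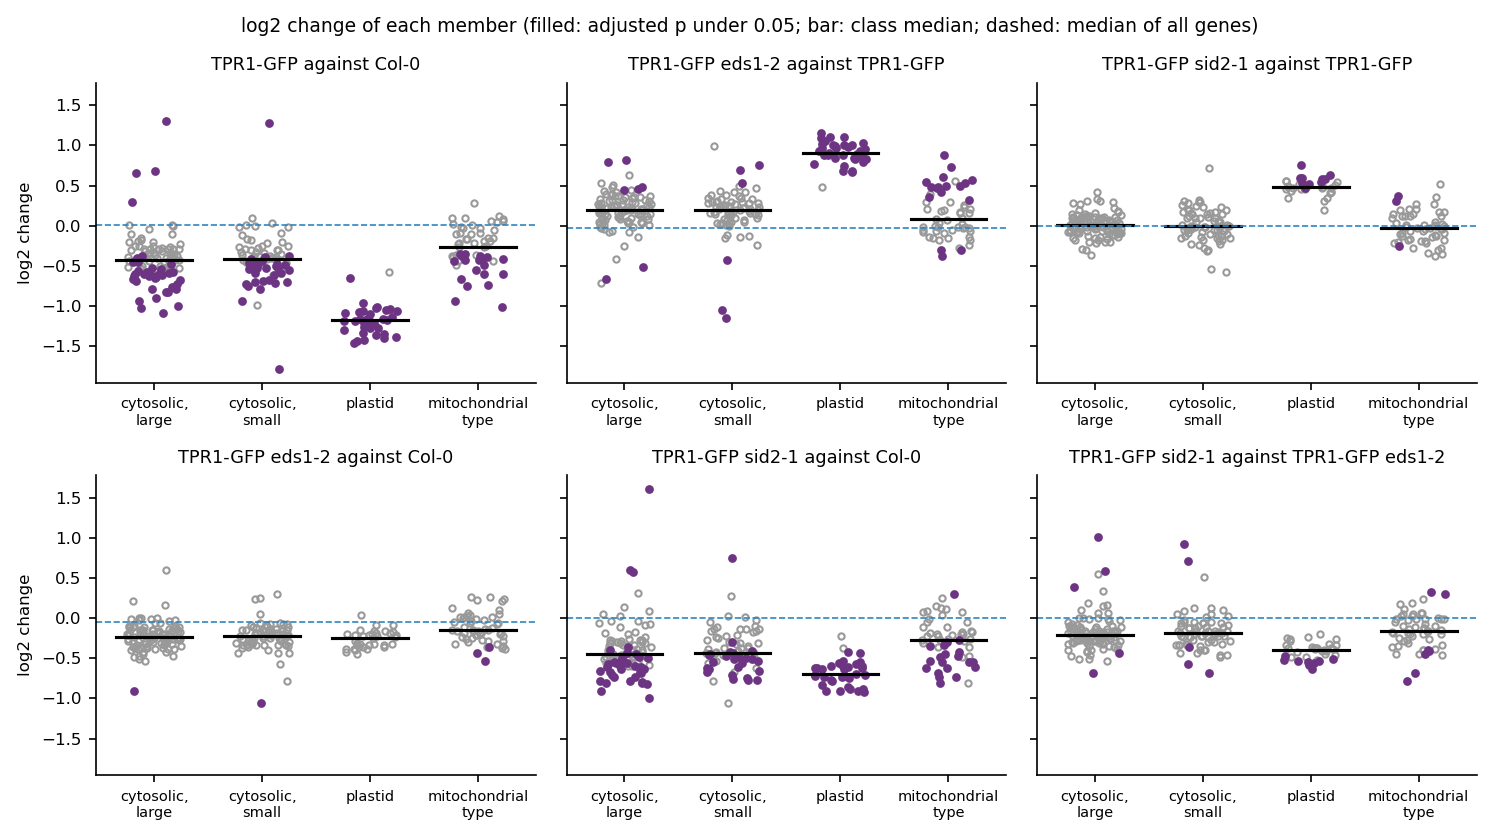
Log2 difference of each member (vertical axis, linear) by class in the 6 comparisons, with filled points for adjusted p under 0.05, a bar for the class median and a dashed line for the median of all genes tested. The plastid medians lie at -1.17 in TPR1-GFP against Col-0, at 0.91 and 0.48 in the eds1-2 and sid2-1 lines against TPR1-GFP, and at -0.25 and -0.69 in these lines against Col-0.

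Plastid ribosomal proteins of both subunits moved together. All 21 large-subunit genes were lower in TPR1-GFP than in Col-0, between -1.46 and -0.96 on the log2 scale, and 13 of 14 small-subunit genes were, with a lowest value of -1.43. AT2G24090, described as L35 of the large subunit, had 117.1, 80.13 and 88.46 CPM in the TPR1-GFP libraries, against 229.9, 242.6 and 314.9 CPM in Col-0. Every TPR1-GFP library was below every Col-0 library, and the log2 difference was -1.46 (SE 0.18, adjusted p = 6.24e-05), the lowest of the class. AT3G15190, the S20 of the small subunit, had 166.5, 116.1 and 112.2 CPM in the TPR1-GFP libraries, against 290.8, 328.4 and 446.1 CPM in Col-0, a log2 difference of -1.43 (SE 0.20, adjusted p = 0.000138). In both genes TPR1-GFP replicate 1 was the highest of its genotype and Col-0 replicate 3 the highest of all 12 libraries.

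RPS9 (AT1G74970), a protein of the small subunit's head, showed the whole series of levels. It had 176.2, 177.3 and 179.4 CPM in TPR1-GFP sid2-1, 263.3, 187.3 and 252.7 CPM in TPR1-GFP eds1-2 and 130.8, 91.05 and 94.67 CPM in the TPR1-GFP libraries, against 231.9, 274 and 320 CPM in Col-0. The libraries of the sid2-1 line lay above all TPR1-GFP libraries and below all others, while the eds1-2 line overlapped Col-0. The log2 difference was -1.38 (SE 0.17, adjusted p = 6.35e-05) in TPR1-GFP against Col-0, 1.15 (SE 0.17, adjusted p = 0.000198) in the eds1-2 line against TPR1-GFP and 0.75 (SE 0.17, adjusted p = 0.0135) in the sid2-1 line against TPR1-GFP, the last lost in 2 of 19 alternatives. Against Col-0 the eds1-2 line differed by -0.23 (adjusted p = 0.369) and the sid2-1 line by -0.63 (adjusted p = 0.0114).

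RPS1 (AT5G30510), which helps the plastid ribosome bind messages, had the same order of means. It stood at 431, 388.8 and 422.1 CPM in TPR1-GFP sid2-1, 533.4, 430.5 and 494.1 CPM in TPR1-GFP eds1-2 and 363, 282 and 273.6 CPM in the TPR1-GFP libraries, against 564.1, 576.3 and 733.1 CPM in Col-0. The log2 difference was -1.03 (SE 0.14, adjusted p = 0.000125) in TPR1-GFP against Col-0, and the sid2-1 line differed from TPR1-GFP by 0.43 (adjusted p = 0.0531), just short of a call although the libraries did not overlap. PRPL11 (AT1G32990), a protein of the large subunit's factor-binding stalk base, was called in both double lines against TPR1-GFP, by 0.94 (SE 0.17, adjusted p = 0.000689) in the eds1-2 line and 0.53 (SE 0.17, adjusted p = 0.0492) in the sid2-1 line. GHS1 (AT3G27160), the plastid S21, was higher than in TPR1-GFP by 0.97 in the eds1-2 line and by 0.60 in the sid2-1 line (adjusted p = 0.000552 and 0.0309). In the sid2-1 line the PRPL11 call was lost in 10 and the GHS1 call in 5 of 19 alternatives.

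The plastid genes farthest from the rest were small-subunit genes. RFC3 (AT3G17170), an S6-type protein, had 59.69, 40.05 and 37.66 CPM in the TPR1-GFP libraries, against 59.16, 54.51 and 90.48 CPM in Col-0. Its libraries overlapped, and it was the plastid gene without a call in either TPR1-GFP against Col-0 (log2 difference -0.57, adjusted p = 0.0502) or the eds1-2 line against TPR1-GFP (0.48, adjusted p = 0.0916). SSR16 (AT4G34620), the S16 and the plastid gene of highest level per coding length, had 354.8, 259.9 and 259.9 CPM in the TPR1-GFP libraries, against 404.5, 466.2 and 495.1 CPM in Col-0. Its log2 difference of -0.64 (SE 0.14, adjusted p = 0.00219) was the smallest of the called plastid genes. AT5G15760, a PSRP-3-type protein, was the least abundant plastid gene, with 2.911, 2.321 and 2.946 CPM in the TPR1-GFP libraries, against 6, 5.913 and 6.87 CPM in Col-0 (log2 difference -1.20, SE 0.18, adjusted p = 0.000179). An overlapping gene holds 33.6% of its 50-base windows. AT3G17465, whose description reads L3 of the plastid while AT2G43030 is the other plastid L3, was left among the genes of unclear class, and its log2 difference was -0.09 (adjusted p = 0.547).

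**Figure D3:**
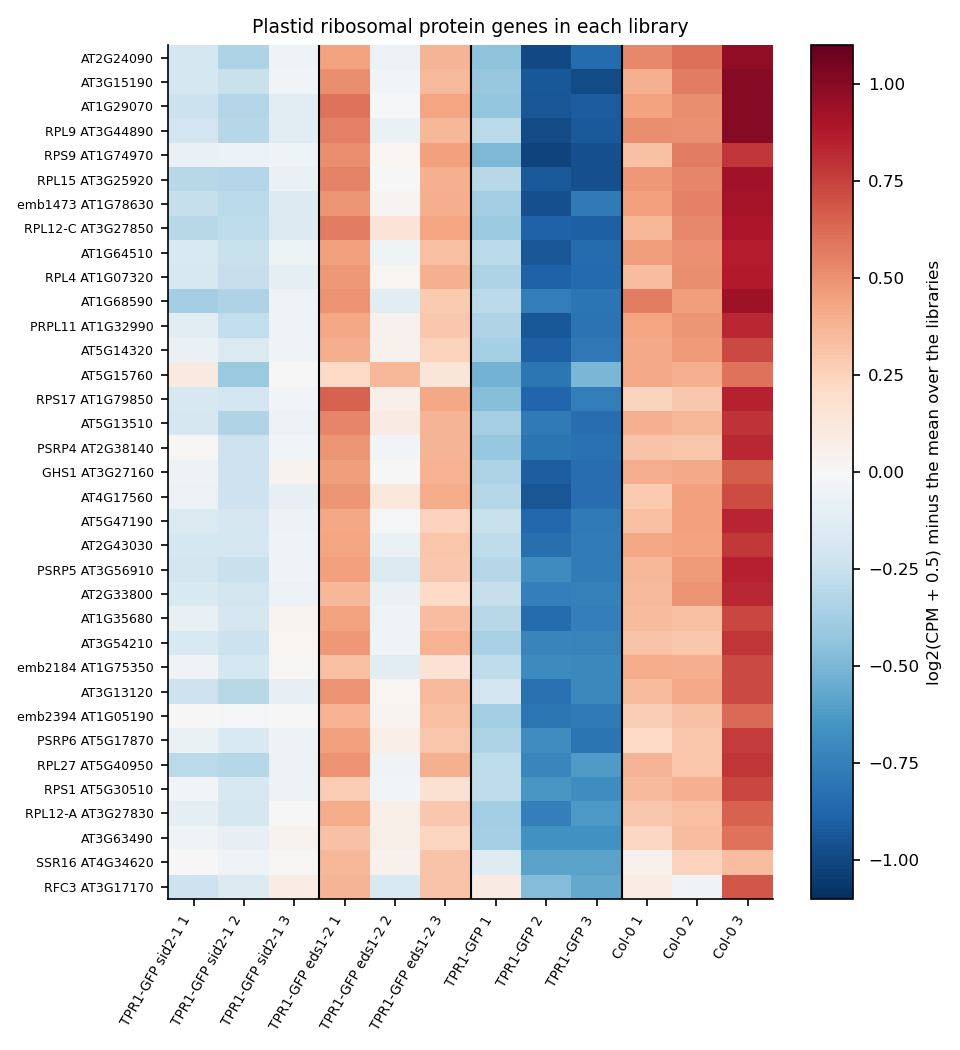
Level of each of the 35 plastid ribosomal protein genes (rows) in each library (columns, by genotype), as log2(CPM + 0.5) minus the gene's mean over the 12 libraries. TPR1-GFP replicates 2 and 3 lie below the mean, and Col-0 replicate 3 above it, in all 35 rows.

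Against Col-0, edgeR called 0 plastid genes in TPR1-GFP eds1-2 (median log2 difference -0.25, 34 of 35 negative, and -0.12 without Col-0 replicate 3), with 5 lower at an unadjusted p under 0.05 and 0 called by DESeq2, and 33 of 35 were called lower in TPR1-GFP sid2-1 (median -0.69, all 35 negative). The backgrounds were 8.02% of genes lower and 9.48% higher in the eds1-2 line, and 19.9% lower and 22.1% higher in the sid2-1 line. The genes not called in the sid2-1 line were RFC3 (-0.37, adjusted p = 0.203) and SSR16 (-0.23, adjusted p = 0.2). Without Col-0 replicate 3, 23 of 35 were called in the sid2-1 line, beside 13.4% of all genes lower and 16.7% higher. Between the double lines, sid2-1 against eds1-2, 9 plastid genes were called lower (median -0.40, all 35 negative), beside 14.9% of all genes lower and 19.5% higher. That count ran from 0 without TPR1-GFP eds1-2 replicate 1 to 24 without TPR1-GFP eds1-2 replicate 2. Among the 9 were RPL12-C (AT3G27850), of the flexible stalk (log2 difference -0.63, SE 0.17, adjusted p = 0.0137), AT1G29070, an L34 (-0.59, adjusted p = 0.0377), and RPL15 (AT3G25920; -0.56, SE 0.20, adjusted p = 0.0465). These calls were lost in 1, 6 and 8 of 19 alternatives.

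The balance of plastid to cytosolic ribosomal protein counts does not depend on how the libraries are scaled. Plastid counts per cytosolic count were 0.531, 0.485 and 0.495 in TPR1-GFP sid2-1 (0.504 ± 0.0240, SD, n = 3), 0.587, 0.613 and 0.571 in TPR1-GFP eds1-2 (0.591 ± 0.0215), and 0.391, 0.327 and 0.377 in TPR1-GFP (0.365 ± 0.0338), against 0.632, 0.638 and 0.565 in Col-0 (0.612 ± 0.0404). All TPR1-GFP libraries lay below all others, the sid2-1 libraries came next without overlap, and the eds1-2 and Col-0 libraries overlapped. Within the cytosolic ribosome, small-subunit counts per large-subunit count averaged 0.649 in TPR1-GFP sid2-1, 0.637 in TPR1-GFP eds1-2 and 0.630 in TPR1-GFP, against 0.634 in Col-0.

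**Figure D4:**
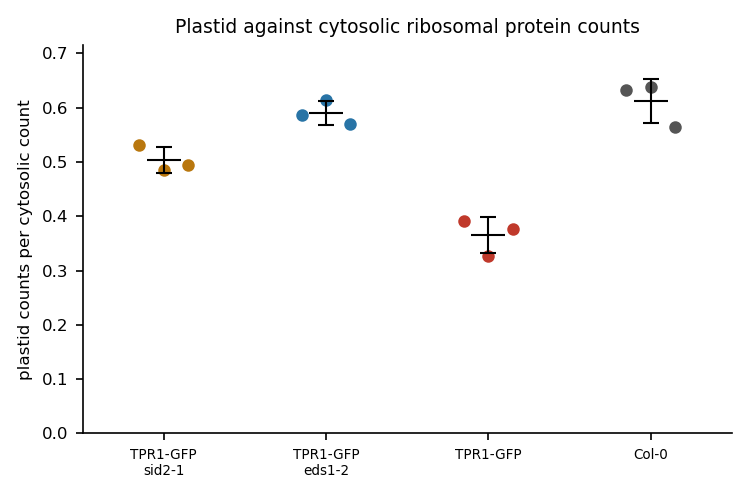
Summed counts of the 35 plastid genes divided by those of the 171 cytosolic genes (vertical axis, linear from 0), with a point per library and the mean ± SD of 3 libraries per genotype. The means are 0.504 in TPR1-GFP sid2-1, 0.591 in TPR1-GFP eds1-2 and 0.365 in TPR1-GFP, against 0.612 in Col-0.

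Some markers of leaf cells moved with these values and others did not. The 6 mesophyll genes, such as the Rubisco small-subunit gene RBCS1A, summed to 47060 to 50250 CPM in TPR1-GFP sid2-1, 58630 to 67130 CPM in TPR1-GFP eds1-2 and 35760 to 40960 CPM in the TPR1-GFP libraries, against 66060 to 75450 CPM in Col-0. Of these 6, 5 were called lower in TPR1-GFP than in Col-0, while 5 were higher in the eds1-2 line and 3 in the sid2-1 line than in TPR1-GFP. Of all genes tested 26.4% were lower in TPR1-GFP than in Col-0. Against TPR1-GFP, 25.2% of all genes were higher in the eds1-2 line and 9.7% in the sid2-1 line. These shares apply to the lists below too. Of 9 genes of dividing cells, 8 were lower in TPR1-GFP than in Col-0, with sums of 52.15 to 70.47 CPM in the TPR1-GFP libraries, against 110.6 to 149.2 CPM in Col-0, while 8 were higher in the eds1-2 line and 2 in the sid2-1 line than in TPR1-GFP. All 3 epidermis and guard cell genes were lower in TPR1-GFP, at sums of 75.75 to 98.14 CPM, against 127.5 to 230.0 CPM in Col-0. Of these 3, 1 was higher in the eds1-2 line than in TPR1-GFP, and in the sid2-1 line against TPR1-GFP their median log2 difference was -0.06, with sums of 75.1 to 124.5 CPM in the sid2-1 line. Fewer cells of a type and less RNA per cell cannot be told apart in these bulk leaf samples, and the part of either in the results was not tested. Of 4 root genes 3 had a row, at sums of 32.77 to 35.51 CPM in the TPR1-GFP libraries, against 28.82 to 34.85 CPM in Col-0. Of these 3, 1 was called higher and 1 lower in TPR1-GFP than in Col-0. Their sums were 28.81 to 36.42 CPM in TPR1-GFP sid2-1 and 22.23 to 25.55 CPM in TPR1-GFP eds1-2. In the eds1-2 line 2 were lower than in TPR1-GFP, beside 27.7% of all genes. Of 5 flower genes AG alone had a row, with 2.002 to 2.262 CPM in TPR1-GFP eds1-2 and 0.0796 to 0.2865 CPM in TPR1-GFP, against 0.2982 to 0.9501 CPM in Col-0. The phloem gene SUC2 had 333.7 to 377.2 CPM in TPR1-GFP eds1-2 and 207.4 to 226.2 CPM in TPR1-GFP, against 199.8 to 278.5 CPM in Col-0, and neither the 2 seed genes nor SAG12 of senescent leaves had a row.

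Cytosolic large-subunit genes had a median log2 difference of -0.43 in TPR1-GFP against Col-0, and most of their 36 calls were lost without Col-0 replicate 3. AT4G17390, an L15 protein, had 102.5, 79.02 and 65.89 CPM in the TPR1-GFP libraries, against 137, 146.1 and 243.5 CPM in Col-0. The groups did not overlap, and the log2 difference was -1.09 (SE 0.25, adjusted p = 0.00342). AT4G25890, an acidic protein of the ribosomal stalk, had 21.13, 16.47 and 15.41 CPM in the TPR1-GFP libraries, against 27.05, 30.46 and 44.13 CPM in Col-0 (log2 difference -0.94, SE 0.19, adjusted p = 0.00128). Both were higher in the eds1-2 line than in TPR1-GFP, by 0.79 (adjusted p = 0.019) and 0.82 (adjusted p = 0.00302). Both calls against Col-0 held without Col-0 replicate 3 and in all other alternatives. Without that library 7 of 100 large-subunit and 3 of 71 small-subunit genes were called lower, while 21.7% of all genes were lower and 22.9% higher. With no scaling beyond the library total 7 and 4 were lower and 5 and 1 higher, while 16.4% of all genes were lower and 44.2% higher. The medians under that setting were -0.16 and -0.15, beside a median of 0.26 over all genes.

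Members known from the study of Arabidopsis development and translation showed the same range. ARP1 (AT1G43170), the L3 that lines the peptidyl transferase centre, had 442.8, 363.8 and 309.3 CPM in the TPR1-GFP libraries, against 450.1, 479.8 and 670.9 CPM in Col-0, a log2 difference of -0.52 (SE 0.19, adjusted p = 0.0359) that is not called without Col-0 replicate 3. RPL24A (AT2G36620) had 74.78, 58.36 and 52.63 CPM in the TPR1-GFP libraries, against 90.86, 100.1 and 156.3 CPM in Col-0 (log2 difference -0.90, SE 0.24, adjusted p = 0.00826), and kept its call in all alternatives. Its paralog STV1 (AT3G53020), an L24 known for its role in translation reinitiation, had -0.25 (adjusted p = 0.257). ATL5 (AT3G25520), an L5 that binds 5S ribosomal RNA, was lower, with a log2 difference of -0.61, as were the L4 paralogs AT3G09630 and AT5G02870, with -0.44 and -0.60. These 3 calls were lost without Col-0 replicate 3. RPL10B (AT1G26910) was lower, with a log2 difference of -0.82 (adjusted p = 0.00779), and its more abundant paralog SAC52 (AT1G14320), named as a suppressor of acaulis5, had -0.29 (adjusted p = 0.153).

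In the small subunit, AT2G41840, an S5-family protein, had 207.6, 172.3 and 145.7 CPM in the TPR1-GFP libraries, against 260, 261.8 and 384.7 CPM in Col-0. The groups did not overlap, and the log2 difference was -0.79 (SE 0.19, adjusted p = 0.00453). RPS6 (AT4G31700), the substrate of S6 kinases, had 153.4, 115.7 and 99.57 CPM in the TPR1-GFP libraries, against 169.1, 157.9 and 266.3 CPM in Col-0, a log2 difference of -0.69 (SE 0.26, adjusted p = 0.0428), and its paralog EMB3010 (AT5G10360) had -0.41 (adjusted p = 0.0423). Neither RPS6 call held without Col-0 replicate 3. PFL (AT1G22780), an S18 whose loss gives pointed leaves, had a log2 difference of -0.67, ATRPS13A (AT4G00100) of -0.44 and ATRPS5B (AT2G37270) of -0.59, all 3 lower but not called without that library, while ATRPS5A (AT3G11940) had -0.30 (adjusted p = 0.142).

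The sid2-1 line also had cytosolic genes called lower than in Col-0. Of the large-subunit genes 35 were lower and 3 higher (median log2 difference -0.45), and of the small-subunit genes 24 were lower and 1 higher (median -0.43). Over all members 121 were lower and 11 higher, beside 19.9% of all genes lower and 22.1% higher. Without Col-0 replicate 3 the lower counts were 42 over all members, 4 for the large and 2 for the small subunit, beside 13.4% of all genes. The medians were then -0.23 for both subunits. In TPR1-GFP eds1-2 against Col-0 1 gene of each subunit was lower, beside 8.02% of all genes lower and 9.48% higher. Both edgeR and DESeq2 called 0 cytosolic genes higher, with 0 higher at an unadjusted p under 0.05. The medians were -0.24 and -0.22, and -0.0095 and -0.0155 without Col-0 replicate 3. Between the double lines, sid2-1 against eds1-2, the large subunit had 3 genes higher and 2 lower and the small subunit 2 higher and 3 lower. Of all genes tested 19.5% were higher and 14.9% lower. The class medians were -0.205 and -0.19, against 0.0008 over all genes. Negative log2 differences were seen in 88 of 100 large-subunit and 60 of 71 small-subunit genes.

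A few cytosolic paralogs went against their class. AT5G39850, 1 of the S9-type pair (described by its S4 domain), had 16.13, 15.15 and 12.6 CPM in TPR1-GFP sid2-1, 8.519, 11.94 and 10.25 CPM in TPR1-GFP eds1-2 and 22.06, 21 and 20.46 CPM in the TPR1-GFP libraries, against 10.85, 9.541 and 5.9 CPM in Col-0. The sid2-1 libraries lay between those of TPR1-GFP and those of the other genotypes. The log2 difference was 1.28 (SE 0.19, adjusted p = 0.000239) in TPR1-GFP against Col-0, -1.05 (SE 0.19, adjusted p = 0.000827) in the eds1-2 line against TPR1-GFP and 0.74 (SE 0.20, adjusted p = 0.0106) in the sid2-1 line against Col-0. Its paralog AT5G15200 had 239.6, 210.1 and 183.5 CPM in the TPR1-GFP libraries, against 261.7, 289.9 and 398.8 CPM in Col-0 (log2 difference -0.59, SE 0.18, adjusted p = 0.0145). AT5G39850 made up 8.43 to 10.0% of the pair's counts in TPR1-GFP, against 1.46 to 3.98% in Col-0.

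AT2G19740, an L31 protein, had 70.03, 71.02 and 66.7 CPM in TPR1-GFP sid2-1, 50.3, 44.76 and 43.28 CPM in TPR1-GFP eds1-2 and 75.47, 74.92 and 68.75 CPM in the TPR1-GFP libraries, against 46.3, 44.03 and 48.85 CPM in Col-0. The TPR1-GFP and sid2-1 libraries overlapped and lay above all others. The log2 difference was 0.65 (SE 0.08, adjusted p = 7.3e-05) in TPR1-GFP against Col-0, -0.66 (SE 0.08, adjusted p = 6.48e-05) in the eds1-2 line against TPR1-GFP and 0.59 (SE 0.08, adjusted p = 0.000291) in the sid2-1 line against the eds1-2 line. AT3G13580, an L7 protein, was highest in the sid2-1 line, with 84.44, 87.2 and 82.17 CPM there and 71.05, 69.91 and 64.26 CPM in the TPR1-GFP libraries, against 48.35, 57.2 and 61.46 CPM in Col-0. Its log2 difference was 0.60 (SE 0.10, adjusted p = 0.000823) in the sid2-1 line against Col-0 and 0.30 (SE 0.10, adjusted p = 0.0264) in TPR1-GFP against Col-0, and 5 of the 19 alternatives ended the second call. AT3G02190, an L39 protein, was higher by 0.68 in TPR1-GFP than in Col-0 (adjusted p = 0.000801) and lower in the eds1-2 line than in TPR1-GFP, with a log2 difference of -0.52 (adjusted p = 0.00453). AT3G28500, an acidic stalk protein with a mean of 1.37 CPM over all libraries, had 1.31 (adjusted p = 0.00781) in TPR1-GFP against Col-0.

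**Figure D5:**
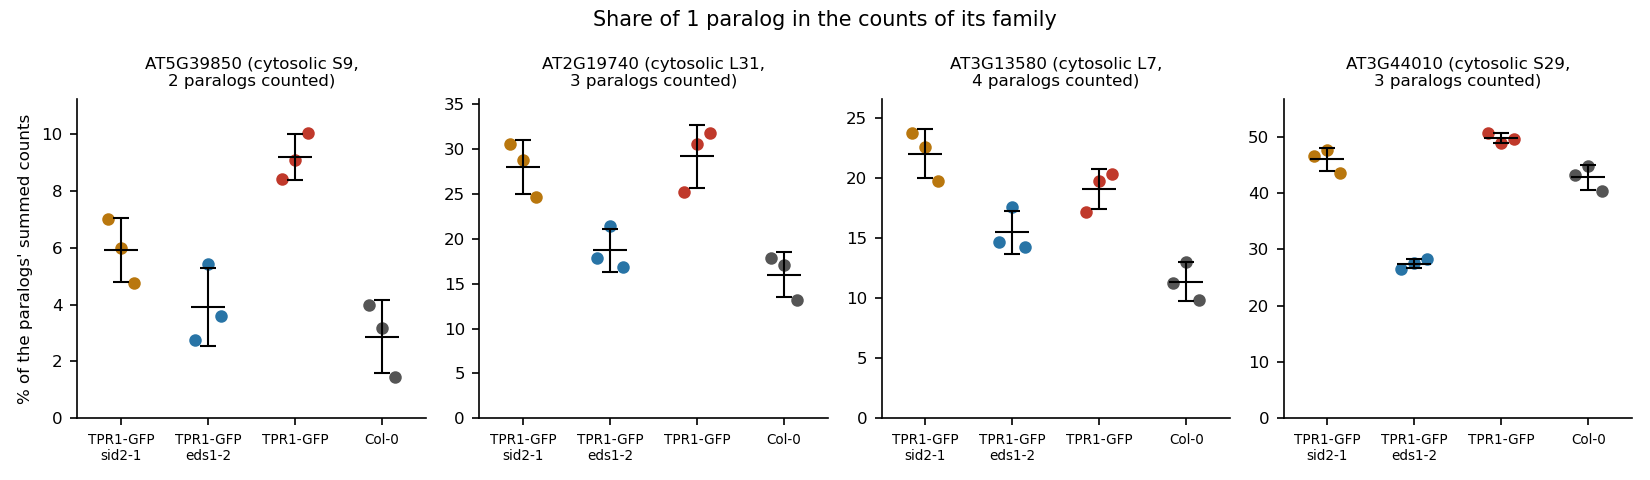
Share of 1 paralog in the summed counts of its cytosolic family (percent, linear axis from 0), with a point per library and the mean ± SD of 3 libraries per genotype. AT5G39850, AT2G19740 and AT3G13580 hold larger shares in TPR1-GFP and TPR1-GFP sid2-1 than in Col-0, and AT3G44010 holds 26.6 to 28.3% in TPR1-GFP eds1-2, below the other genotypes.

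Members of the S29 family moved in opposite directions in TPR1-GFP eds1-2. AT3G44010 had 69.88, 73 and 72.41 CPM in TPR1-GFP sid2-1, 43.03, 31.18 and 39.8 CPM in TPR1-GFP eds1-2 and 94.4, 84.32 and 74.65 CPM in the TPR1-GFP libraries, against 65.86, 70.46 and 100.1 CPM in Col-0. All eds1-2 libraries lay below all others. The eds1-2 line had a log2 difference of -1.15 (SE 0.16, adjusted p = 0.00015) against TPR1-GFP and -1.05 (SE 0.16, adjusted p = 0.00127) against Col-0, and the sid2-1 line was higher than the eds1-2 line by 0.92 (SE 0.16, adjusted p = 0.00133). AT3G43980 of the same family was higher in the eds1-2 line, at 31.96, 21.02 and 28.89 CPM in TPR1-GFP eds1-2, against 18.26, 16.87 and 15.25 CPM in TPR1-GFP (log2 difference 0.70, SE 0.17, adjusted p = 0.00536). Against Col-0 it differed by 0.25 in the eds1-2 line (adjusted p = 0.339) and by -0.45 in TPR1-GFP (adjusted p = 0.0473). AT3G43980 made up 18.6 to 20.5% of the family's counts in TPR1-GFP eds1-2, against 9.795 to 10.13% in TPR1-GFP. RPS15AD (AT3G46040) had 60.98, 55.53 and 57.78 CPM in TPR1-GFP sid2-1, against 41.39, 28.55 and 36.7 CPM in TPR1-GFP eds1-2, a log2 difference of 0.71 (SE 0.15, adjusted p = 0.00346).

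These 3 genes, which were named for their values, lie on the chromosome that carries EDS1. In TAIR10.1 AT3G43980 is at chr3:15778275-15779360, AT3G44010 at chr3:15799481-15801227 and RPS15AD at chr3:16914525-16915837, and EDS1 is at chr3:17755329-17758147. Of the 3, AT3G44010 alone was called in the eds1-2 line against Col-0. RPS15AD and the other members with locus codes between AT3G44010 and EDS1, such as AT3G44590 and AT3G47370, were not called there. The members called in that comparison, given below, lie on chromosomes 1, 2, 3 and 5. Any link between position and level was not tested, and calls elsewhere do not decide it. Of 62 families with 2 or more members in the table, 3 held calls in both directions in TPR1-GFP against Col-0, 1 in the eds1-2 line against TPR1-GFP, none in the sid2-1 line against TPR1-GFP, none in the eds1-2 line against Col-0, 2 in the sid2-1 line against Col-0 and 1 in the sid2-1 line against the eds1-2 line. Near-identical paralogs can exchange reads. Of the 309 members 244 share no 50-base window with a gene elsewhere, and 14 share over 10% of theirs, most of all the L9 pair PGY2 (AT1G33140) and AT1G33120 with 54.2% and 53.4%. Another 31 have over 10% of their windows in an overlapping gene, and the strand setting of the counting is not given in the sources used here.

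Some mitochondrial-type genes moved like the plastid genes in direction. AT4G28360, an L22 protein, had 16.48, 18.25 and 19.05 CPM in TPR1-GFP sid2-1, 32.2, 25.39 and 28.79 CPM in TPR1-GFP eds1-2 and 19.55, 13.72 and 13.5 CPM in the TPR1-GFP libraries, against 25.85, 27.78 and 40.21 CPM in Col-0. TPR1-GFP and the sid2-1 line overlapped below the other genotypes. The difference on the log2 scale was -1.01 (SE 0.18, adjusted p = 0.000767) in TPR1-GFP against Col-0, 0.89 (SE 0.18, adjusted p = 0.00181) in the eds1-2 line against TPR1-GFP and -0.80 (SE 0.18, adjusted p = 0.005) in the sid2-1 line against Col-0. AT5G15220, an L27 protein, had 9.81, 7.907 and 8.958 CPM in the TPR1-GFP libraries, against 14.95, 14.91 and 14.79 CPM in Col-0 (log2 difference -0.74, SE 0.13, adjusted p = 0.00059). Its paralog AT2G16930 was lower in the eds1-2 line, at 18.05, 20.71 and 18.88 CPM in TPR1-GFP eds1-2, against 23.18, 26.3 and 25.12 CPM in TPR1-GFP (log2 difference -0.37, SE 0.09, adjusted p = 0.00384).

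MRPL11 (AT4G35490), the mitochondrial L11, was 1 of 2 mitochondrial-type genes called higher in both double lines against TPR1-GFP, with 28.18, 29.44 and 30.46 CPM in TPR1-GFP sid2-1 and 33.98, 28.73 and 37.42 CPM in TPR1-GFP eds1-2, against 24.18, 23.09 and 24.05 CPM in TPR1-GFP. Its log2 difference was 0.49 (SE 0.09, adjusted p = 0.000991) in the eds1-2 line and 0.31 (SE 0.09, adjusted p = 0.0423) in the sid2-1 line, and 9 of the 19 alternatives ended the second call. AT1G24240, an L19 protein, was the other such gene, at 0.54 (adjusted p = 0.000523) and 0.37 (adjusted p = 0.02), and it was lower in TPR1-GFP than in Col-0, with a log2 difference of -0.41 (adjusted p = 0.00278). Without Col-0 replicate 3, 7 of 56 mitochondrial-type genes in place of 19 were called lower in TPR1-GFP than in Col-0, beside 21.7% of all genes. With no scaling beyond the library total 3 were lower and 7 higher, beside 16.4% of all genes lower and 44.2% higher.

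Outside these classes, genes were named after their values were seen. AT4G26060 of the L18ae family, which also holds proteins not known as ribosome subunits, had 17.78, 14.95 and 16.72 CPM in TPR1-GFP sid2-1, 6.209, 9.442 and 8.533 CPM in TPR1-GFP eds1-2 and 17.86, 23.21 and 26.08 CPM in the TPR1-GFP libraries, against 9.701, 7.205 and 6.385 CPM in Col-0. Its log2 difference was 1.53 (SE 0.19, adjusted p = 7.43e-05) in TPR1-GFP against Col-0 and -1.47 (SE 0.19, adjusted p = 9.36e-05) in the eds1-2 line against TPR1-GFP. RPL18AA (AT1G29970) of the same family was higher in TPR1-GFP than in Col-0 by 0.61 (adjusted p = 0.0018). AT5G24490, annotated as a 30S protein, had its highest mean in the sid2-1 line, with 624.2, 574.3 and 497.6 CPM in TPR1-GFP sid2-1, against 301.7, 237 and 234.7 CPM in TPR1-GFP (log2 difference 1.13, SE 0.16, adjusted p = 0.00147). It was 383.5, 573.6 and 430.4 CPM in Col-0, which the sid2-1 line overlapped. The elongation-factor-like AT3G12915 had 4.672, 3.696 and 3.742 CPM in the TPR1-GFP libraries, against 8.901, 10.93 and 14.91 CPM in Col-0 (log2 difference -1.52, SE 0.23, adjusted p = 0.000195). Of its 50-base windows 85.2% lie in an overlapping gene, as do 52.1% of those of RPL18AA, and without a stated strand setting such counts cannot be assigned to 1 gene.

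In TPR1-GFP eds1-2 against Col-0, 7 members (2.27%) were called lower and 2 (0.647%) higher, below the 8.02% and 9.48% of all genes. Beside AT3G44010 and AT2G16930, the lower ones were AT2G33370, an L23 protein of the cytosol (log2 difference -0.91, SE 0.20, adjusted p = 0.01), RPS10 (AT3G22300; -0.54) and AT5G39600 (-0.43) of the mitochondrial type, AT5G19025 (-0.51), and MEE5 (AT1G06220; -0.30), which is related to a splicing GTPase. The higher ones, AT5G16200 at 0.89 and AT5G25230 at 1.24, had mean levels of 3.58 and 0.674 CPM.

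Genes that build or drive ribosomes were listed apart from the members. Of 34 genes of ribosome biogenesis, 2 were higher and 3 lower in TPR1-GFP against Col-0, with a median log2 difference of -0.14, beside 27.5% of all genes higher and 26.4% lower. Of them 3 were lower in the eds1-2 line against TPR1-GFP (27.7% of all genes), 4 were lower in the sid2-1 line against TPR1-GFP (7.14% of all genes), and 13 were lower in the sid2-1 line against Col-0 (median -0.27; 19.9% of all genes). In the eds1-2 line against Col-0 1 was lower (8.02% of all genes), with a similar median of -0.26. At an unadjusted p under 0.05 from edgeR, 13 were lower in that line and 17 in the sid2-1 line against Col-0. These counts include Col-0 replicate 3. Between the double lines edgeR called 0, with 1 at an unadjusted p under 0.05 and 0 by DESeq2. Of 5 elongation factor genes, 1 was lower in TPR1-GFP against Col-0 and 2 in the sid2-1 line against Col-0, among them LOS1 (AT1G56070), an EF-2, which the rule also counts as a member (-0.47, adjusted p = 0.0135). The shares of all genes lower in these 2 comparisons were 26.4% and 19.9%.

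Of 6 genes of the TOR pathway, which couples nutrients to translation, 2 were higher in TPR1-GFP than in Col-0, beside 27.5% of all genes. Both encode S6 kinases, which phosphorylate RPS6. ATPK19 (AT3G08720) had 29.59, 31.79 and 29.08 CPM in TPR1-GFP sid2-1, 4.139, 7.527 and 4.814 CPM in TPR1-GFP eds1-2 and 21.56, 28.71 and 29.78 CPM in the TPR1-GFP libraries, against 8.351, 4.572 and 5.374 CPM in Col-0. TPR1-GFP and the sid2-1 line lay apart from the other genotypes. It differed by a log2 value of 2.13 (SE 0.24, adjusted p = 3.72e-05) in TPR1-GFP against Col-0, -2.28 (SE 0.24, adjusted p = 2.59e-05) in the eds1-2 line against TPR1-GFP and 2.31 (SE 0.24, adjusted p = 4.39e-05) in the sid2-1 line against Col-0. ATPK1 (AT3G08730) had 83.05, 88.04 and 76.64 CPM in the TPR1-GFP libraries, against 54.45, 50.49 and 48.77 CPM in Col-0 (log2 difference 0.69, SE 0.09, adjusted p = 8.42e-05). In the eds1-2 line 3 of the 6 were lower than in TPR1-GFP, beside 27.7% of all genes.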

How the data were processed

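RNA-seq read counts per gene for 12 leaf libraries of 4 genotypes were deposited in 1 table. The submitters' processing notes name TopHat2, HTSeq, limma and the TAIR10 build, while versions, strand and annotation release are not given in the sources used here. The authors also deposited log2 CPM per library, and for 3 comparisons a fold ratio, its log2 value and an adjusted p-value (FDR), used here as an alternative. The lowest gene sum is 101 counts, so rarer transcripts were not analysed here.

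Counts were tested in R 4.3.3 with edgeR 4.0.16 (filterByExpr, TMM, robust quasi-likelihood fit of the 12 libraries by genotype, with no other term), with Benjamini-Hochberg adjustment over 18877 genes in each of 6 comparisons. Each SE is the size of the log2 difference divided by the square root of F. TMM factors ran from 0.888 to 1.10. Replicates of a genotype differed beyond sampling noise (chi-square of 6.70 to 38.4 per degree of freedom), so none is a copy. Promoters, positions and coding lengths come from RefSeq's TAIR10.1, by locus, and all 309 members were found there.

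Members, classes and lists were chosen with earlier results of these data known. Named genes are, in each comparison and class, up to 3 called members of largest change in each direction whose libraries do not overlap and whose mean is at least 10 CPM, the 2 most abundant of each class, and a set chosen from knowledge of the family. Not all genes the rule gives are described. RFC3, SSR16, AT5G15760, AT3G17465, AT3G28500, the genes outside the subunit classes and the 9 members called in TPR1-GFP eds1-2 against Col-0 were named after their values were seen where the rule did not give them. Same-numbered libraries of TPR1-GFP sid2-1 and Col-0 deviated together (correlations of 0.172, 0.220 and 0.309), so their numbers may pair them, while of 18 pairs over all genotypes 8 correlated above 0.1. The replicate block changed little there: 120 in place of 121 members were lower and 11 higher in both fits. Alternatives were RLE, upper-quartile and no scaling, DESeq2 1.42.0, no filter, the replicate block, the 2 genotypes alone, each library left out, and subunits only.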

Additional observations from a re-analysis of the deposited data

How the results depend on the processing

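No call of a named gene changed direction. With no scaling beyond the library total, the cytosolic medians of the sid2-1 line against TPR1-GFP were -0.07 and -0.08, in place of 0.01 and 0.00, and the mitochondrial-type median of the eds1-2 line against TPR1-GFP turned from 0.09 to the negative value below. Of 152 calls of named genes in the 6 comparisons, 72 held in all 19 alternatives, including all 14 named plastid calls of TPR1-GFP against Col-0 and all 14 of TPR1-GFP eds1-2 against TPR1-GFP, but 0 of 5 of TPR1-GFP sid2-1 against TPR1-GFP and 0 of 4 of TPR1-GFP sid2-1 against TPR1-GFP eds1-2. The cause of the shifts below was not tested. With no scaling beyond the library total the median over all genes was 0.26 in TPR1-GFP against Col-0, -0.20 in the eds1-2 line and -0.08 in the sid2-1 line against TPR1-GFP, and 0.17 in the sid2-1 line against Col-0. Under that setting, in TPR1-GFP against Col-0 29 members were higher and 53 lower, beside 44.2% of all genes higher and 16.4% lower. The medians were -0.14 (all members), -0.16 and -0.15 (cytosolic large and small), -0.91 (plastid) and -0.0046 (mitochondrial type). In the eds1-2 line against TPR1-GFP 34 were lower, beside 38.8% of all genes, and the mitochondrial-type median was -0.0753. In the sid2-1 line against TPR1-GFP 8 were higher and 10 lower, in the eds1-2 line against Col-0 4 and 3, in the sid2-1 line against Col-0 27 and 39 with a mitochondrial-type median of -0.0977, and 10 were lower in the sid2-1 line than in the eds1-2 line. With upper-quartile scaling 11 were lower in the eds1-2 line than in TPR1-GFP (mitochondrial-type median 0.22), 0 in the sid2-1 line than in TPR1-GFP, 4 were higher in the eds1-2 line than in Col-0, and 8 were higher and 48 lower in the sid2-1 line than in the eds1-2 line. DESeq2 gave 31 higher and 3 lower in the sid2-1 line against TPR1-GFP (12.5% and 9.02% of all genes). It gave 4 higher in the eds1-2 line against Col-0 (11.7%). The authors' deposited table gave 22 higher and 3 lower in the sid2-1 line against TPR1-GFP, and RLE factors gave 0 lower there (6.81%). With the replicate block 0 members were lower in the sid2-1 line than in TPR1-GFP, where 14 plastid genes were higher. Of all genes 5.92% were lower and 9.01% higher there. The block moved no other count of members by over 1.5 times. Of 12 libraries 7 correlated best with 1 of their own number. In fits of the 2 genotypes alone, 11 were lower in the eds1-2 line than in TPR1-GFP, 28 were higher in the sid2-1 line than in TPR1-GFP, 0 were higher and 1 lower in the eds1-2 line than in Col-0, and 39 were lower in the sid2-1 line than in the eds1-2 line.

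With each library left out in turn, TPR1-GFP against Col-0 had 8 to 12 members higher and 57 to 160 lower (57 without Col-0 replicate 3, 67 and 63 without TPR1-GFP replicates 2 and 3) and a mitochondrial-type median of -0.32 to -0.15. TPR1-GFP eds1-2 against TPR1-GFP had 47 to 93 higher and 13 to 20 lower, and TPR1-GFP sid2-1 against TPR1-GFP 2 to 36 higher and 0 to 3 lower (higher: 36, 2 and 3 without TPR1-GFP replicates 1, 2 and 3, 4, 7 and 5 without TPR1-GFP sid2-1 replicates 1, 2 and 3, 23 without Col-0 replicate 3, 25 without TPR1-GFP eds1-2 replicate 2). TPR1-GFP eds1-2 against Col-0 had 0 to 4 higher and 3 to 7 lower. TPR1-GFP sid2-1 against Col-0 had 9 to 13 higher and 42 to 149 lower (42 without Col-0 replicate 3, 54 and 47 without TPR1-GFP sid2-1 replicates 1 and 2), and TPR1-GFP sid2-1 against TPR1-GFP eds1-2 had 7 to 17 higher and 7 to 54 lower (lower: 8, 54 and 7 without TPR1-GFP eds1-2 replicates 1, 2 and 3, 10 and 8 without TPR1-GFP sid2-1 replicates 1 and 2, 39 without Col-0 replicate 3). Without Col-0 replicate 3, 21.7% of all genes were lower in TPR1-GFP against Col-0 and 13.4% in TPR1-GFP sid2-1 against Col-0. For the other libraries left out these shares are not given here, so the counts do not separate the members from all genes. Genes of few counts, such as AT3G28500 and AT5G25230, are limited by depth.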
